A study of Nicotiana benthamiana with 9 samples.

Results

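A small set of leaf sequences of Nicotiana benthamiana was higher after wounding and lower after heat. A rule for being higher after wounding and lower after heat was met by 93 of the 56094 assembly sequences in the deposited table. These members were 1.30% of the 7167 sequences that reached the level the rule asks for in wounded libraries. Nicotiana benthamiana, an Australian relative of tobacco, is a common host for expressing genes in leaves for a short time. All plants were grown in soil and were 5 weeks old. Wounded plants had their leaves cut with scissors and stood at 23 °C for 1 h, heat-treated plants stood at 37 °C for 1 h, and mock plants stood at 23 °C for 1 h without a wound. Each group had 3 libraries from biological replicates, made from total leaf RNA, and mock was the control. The number of plants or leaves behind a library is not stated in the labels.

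The members were chosen by the measured values themselves, the deposited CPM of all 9 libraries. A sequence was taken where its mean in wounded libraries was at least 5 CPM, its wounded to mock ratio was at least 1.5 and its heat to mock ratio was at most 0.67, with 0.5 CPM added to each mean before the ratios were formed. In addition, every wounded library had to lie above every mock library and every heat library below every mock library. CPM here is the deposited value of that name, a count divided by a scaled library size. The levels of the members in these 9 libraries are therefore a description. Fitted changes and calls of the model are given for them further on as descriptions too, since they come from the same values that chose the members.

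Leaf cells answer a cut and a rise in temperature through different signalling routes. A cut sets off calcium and electrical signals and a rapid build-up of jasmonate, a fatty-acid derived hormone, which releases transcription factors from their JAZ repressors and turns on genes of defence and repair. Heat activates heat shock transcription factors, which turn on genes of chaperones that protect proteins, while many other transcripts of the unstressed leaf decline. None of these genes can be looked up here, because the rows of the table carry sequence names and no gene names. Each row counts reads over a whole scaffold or contig, so the values below belong to stretches of genome. On a long scaffold, a gene that wounding raises and another gene that heat lowers cannot be told apart from 1 gene that does both. The labelled tissue could not be checked against leaf marker genes for the same reason.

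Library totals ran from 13846165 to 17480792 counts. The members together took 0.938% to 1.30% of the count in wounded libraries, 0.199% to 0.202% in heat libraries and 0.459% to 0.476% in mock libraries. Within groups the members were not evenly placed over the libraries. Wounded replicate 2 had the highest value of the 3 wounded libraries for 66 of the 93 members (71.0%), against 38.1% of the 7167 sequences with a wounded mean of at least 5 CPM. Among the mock libraries, which serve both comparisons, replicate 1 was the highest for 51 members (54.8%), against 32.0% of the 7167 sequences, and replicate 3 for 13 (13.98%), against 28.0%. Among the heat libraries replicate 2 was the highest for 44 members (47.3%), against 36.8%. The part of single libraries in the results was examined only by leaving them out.

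Of the 7167 sequences with a wounded mean of at least 5 CPM, 637 (8.89%) had the required ratio after wounding with every wounded library above every mock library. The members were 14.6% of these 637. The heat criteria were met by 1067 of the 7167 (14.9%), and the members were 8.72% of these 1067. Sequences that met the wounding criteria thus met the heat criteria about as often as all 7167 did (14.6% against 14.9%). Both comparisons use the same 3 mock libraries. Both ratios were met by 103 sequences, of which 4 dropped out because a wounded library overlapped mock and 6 because a heat library did. Among all 9645 sequences with enough counts to be tested, every wounded library lay above every mock library in 19.5% and every heat library lay below every mock library in 27.5%. Both held in 4.02%, a share that the 93 members are part of. The mirrored rule, higher after heat and lower after wounding, was met by 53 sequences.

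**Figure D1:**
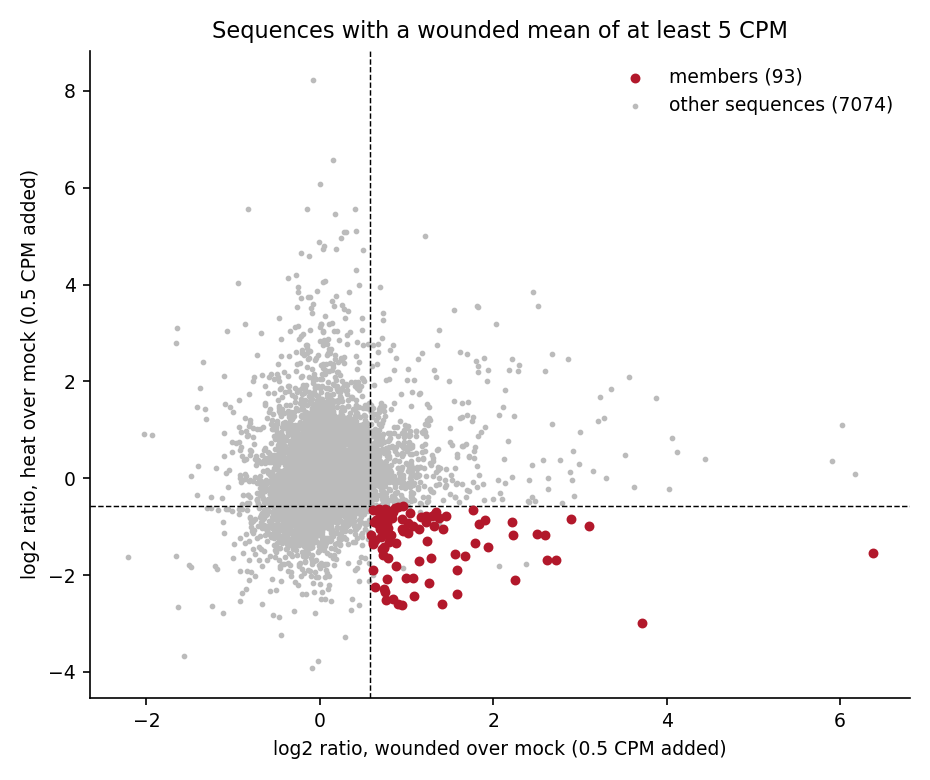
Ratio of heat over mock (vertical axis, log2) against the ratio of wounded over mock (horizontal axis, log2) for each sequence with a wounded mean of at least 5 CPM, both with 0.5 CPM added to the group means. Dashed lines mark the ratios of 1.5 and 0.67; the 93 members lie in the lower right field, and grey points in that field had libraries that overlapped mock.

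Several sequences lay close to the limits of the rule. The lowest wounded to mock ratio among members was 1.504, and the nearest sequence outside had 1.499. The highest heat to mock ratio inside was 0.6699, against 0.6723 just outside. With all other criteria met, 86 sequences fell short of the wounding ratio and 52 of the heat ratio. The level limit separated fewer: the member of lowest level had a wounded mean of 5.16 CPM, and the nearest of 9 sequences below the limit had 2.89 CPM.

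The median member was 1.94-fold higher in wounded than in mock libraries, with a middle range of 1.68 to 2.595 between quartiles. The ratio of heat to mock had a median of 0.452 over the members, with quartiles of 0.319 and 0.555. With the same 93 members, the median wounding ratio was 1.81 without wounded replicate 2 and 2.02 without mock replicate 1, and the median heat ratio was 0.459 without mock replicate 1. Over all 7167 sequences with a wounded mean of at least 5 CPM the medians of these ratios were 1.01 and 1.00. Per library, the median level over the members was 40.0, 57.9 and 46.0 CPM in wounded leaves. It was 6.97, 8.95 and 7.77 CPM in heated leaves, and 19.3, 15.8 and 18.9 CPM in mock leaves. A lower level in whole-leaf RNA can come from fewer cells of a type or from less RNA per cell, and these cannot be told apart here. CPM is also relative to the scaled library size, so it does not give an amount of RNA per leaf.

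**Figure D2:**
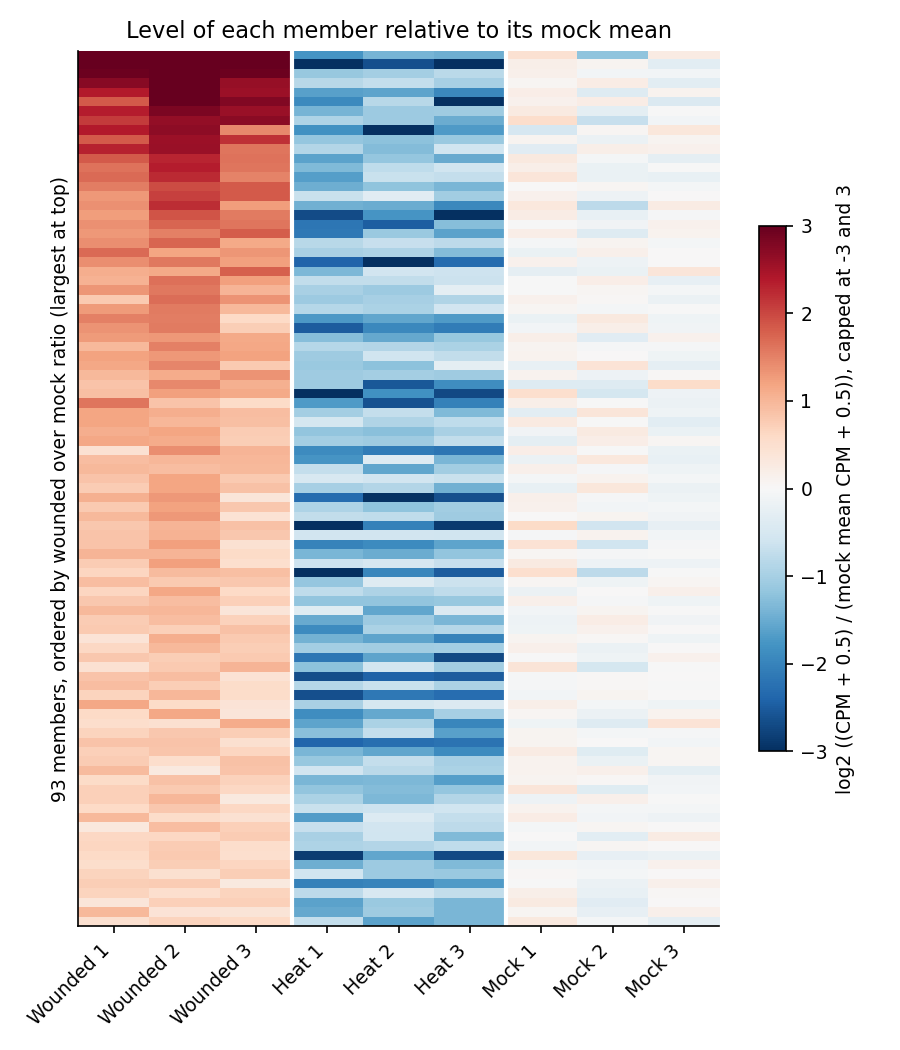
Level of each of the 93 members (rows) in each of the 9 libraries (columns: wounded, heat, mock), as the log2 of CPM + 0.5 over the member's mock mean + 0.5, with colours capped at -3 and 3. Wounded columns are red and heat columns blue by construction of the rule; the depth of colour after heat does not follow the order of rows, which is set by the wounding ratio.

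Summed over the 93 members, the level was 10845 ± 1843 CPM in wounded libraries, 2092 ± 71.0 CPM in heat libraries and 4468 ± 173 CPM in mock libraries (SD, n = 3 each). The 3 wounded sums were 10181, 12929 and 9426 CPM, the heat sums 2019, 2160 and 2097 CPM, and the mock sums 4662, 4328 and 4414 CPM. The wounded libraries thus spread far more than the heat or mock libraries. The sum was 2.43 times mock after wounding and 0.468 times mock after heat. Without wounded replicate 2 the first ratio was 2.19, and without mock replicate 1 the ratios were 2.48 and 0.479.

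**Figure D3:**
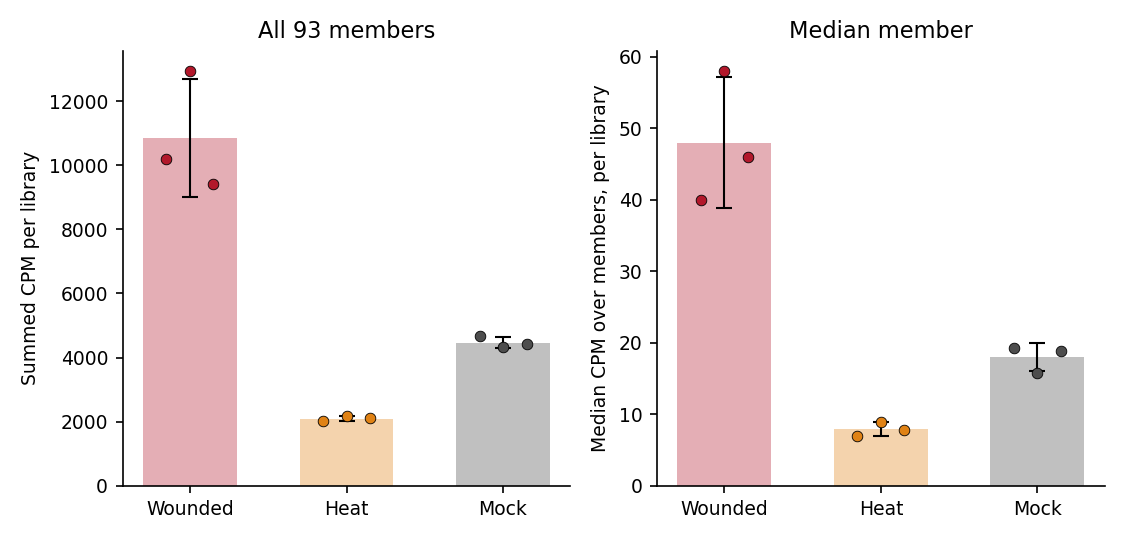
Summed CPM of the 93 members (left) and median CPM over the members (right) in each library. Bars are group means, points single libraries and error bars the SD of 3 libraries. The 3 wounded sums lie between 9426 and 12929 CPM, above the mock sums of 4328 to 4662 CPM, and the heat sums lie between 2019 and 2160 CPM.

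A few members carried much of that sum. The 5 with the highest wounded means, all scaffolds of 339338 to 820556 nt, made up 33.0% to 38.7% of the sum in wounded libraries, 36.8% to 37.9% in heat libraries and 33.8% to 36.0% in mock libraries. Without these 5 the sums were 2.37 times mock after wounding and 0.452 times mock after heat. The most abundant member, a scaffold of 340381 nt, had 980, 1745 and 897 CPM in wounded libraries, 140, 133 and 98.6 CPM in heat libraries, and 469, 217 and 446 CPM in mock libraries. Its wounded replicate 2 was far above the other wounded libraries and its mock replicate 2 far below the other mock libraries. Its wounding ratio was 3.19, and it was 2.48 without wounded replicate 2 and 2.64 without mock replicate 2. The second, a scaffold of 687626 nt, had 1195, 1151 and 888.5 CPM in wounded libraries, 264, 254 and 320 CPM in heat libraries, and 435, 609 and 551.5 CPM in mock libraries. Its groups were closer together, with ratios to mock of 2.03 after wounding and 0.526 after heat. The scaffold of 820556 nt had 635, 804 and 529 CPM in wounded libraries, 134, 149 and 138 CPM in heat libraries, and 233, 256 and 230 CPM in mock libraries, so its mock and heat libraries were each tightly grouped and its wounded libraries spread.

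The members differed in which treatment moved them more. In 24 members the ratio was at least 2 after wounding and at most 0.5 after heat. A further 18 reached 2-fold only after wounding, 32 only after heat and 19 after neither. Without wounded replicate 2 these 4 counts were 22, 16, 34 and 21. Without heat replicate 3 the count for wounding only was 11, and 31 members had both changes. The fold was larger for wounding in 41 members and for heat in 52. A ratio of at least 5 after wounding was seen in 8 members, and a heat ratio of at most 0.25 in 16. Between the treatments themselves, 41 members were at least 5-fold and 19 at least 10-fold higher after wounding than after heat, and the median was 4.53-fold.

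The 24 members with both changes at 2-fold or more had median levels of 64.6 CPM in wounded, 3.54 CPM in heat and 14.1 CPM in mock libraries. The 18 that reached 2-fold only after wounding had medians of 75.3 CPM in wounded, 11.7 CPM in heat and 21.2 CPM in mock libraries. The 32 that reached it only after heat had medians of 24.3 CPM in wounded, 5.25 CPM in heat and 13.2 CPM in mock libraries. Wounded replicate 2 was the highest wounded library in 32 of the 42 members with a wounding ratio of at least 2 (76.2%) and in 34 of the other 51 (66.7%).

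How clearly the groups were apart also varied. The lowest wounded library exceeded the highest mock library by a median factor of 1.43, and by under 1.1 in 4 members. The lowest mock library exceeded the highest heat library by a median factor of 1.71, and by under 1.1 in 2 members. The gap was at least 1.5-fold on the wounding side in 43 members and on the heat side in 60. Within groups the median coefficient of variation over the members was 18.6% in wounded, 17.9% in heat and 13.6% in mock libraries. Over the 7167 sequences these medians were 8.47%, 10.8% and 9.63%.

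The rule for naming picked 3 sequences. It looked only at members with an adjusted p under 0.05 (edgeR) in both comparisons with mock and a mean of at least 10 CPM. The mean was that of mock libraries for the fall after heat and of wounded libraries otherwise. Among these it took the 2 with the largest fitted rise after wounding, the 2 with the largest fall after heat and the 2 with the largest difference between the treatments. The files do not pair these names with genes. The contig Niben101Ctg15550 (positions 1 to 4392) was picked in all 3 ways. It had 129, 229 and 156 CPM in wounded libraries, 1.02, 1.59 and 0.843 CPM in heat libraries, and 14.3, 13.4 and 9.89 CPM in mock libraries. The 3 groups were far apart, with 8.985-fold between the lowest wounded and the highest mock library and 6.21-fold between the lowest mock and the highest heat library. For Niben101Ctg15550 the model fitted a log2 fold change of 3.77 ± 0.229 for wounding and of -3.45 ± 0.311 for heat (SE, edgeR), and the change for wounding was 3.50 without wounded replicate 2. On counts, 7705 in wounded and 49 in heat libraries gave a ratio of 151.5, with an exact 95% counting interval of 114.5 to 204.9. This interval covers counting error only and leaves out the spread between libraries.

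The scaffold Niben101Scf10847 (positions 1 to 89863) was picked for its rise after wounding and for its difference between the treatments. It had 90.1, 149.8 and 185.5 CPM in wounded libraries, 0, 0.152 and 0.120 CPM in heat libraries, and 1.87, 0.246 and 1.53 CPM in mock libraries. It was nearly silent outside the wounded leaves, and its lowest mock library held 4 counts against 2 in the highest heat library. All heat values lie under the level of 3 counts per library, which is 0.181 to 0.228 CPM in heat libraries. On summed counts the wounded to mock ratio of Niben101Scf10847 was 117 (95% counting interval 90.6 to 153.9, from 6398 and 59 counts). The heat to mock ratio was 0.0759 (0.0200 to 0.205, from 4 and 59 counts). Both intervals are on pooled counts and leave out the spread between libraries. With 0.5 CPM added to each mean, as in the rule, the heat to mock ratio was 0.344. The model fitted a log2 fold change of 6.86 ± 0.427 for wounding and of -3.60 ± 1.02 for heat (SE, edgeR). The fall after heat of this scaffold thus rests on few reads, and mock replicate 2 held 4 of its 59 mock counts.

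The scaffold Niben101Scf09024 (positions 1 to 117971) was picked for its fall after heat. It had 28.8, 33.97 and 17.5 CPM in wounded libraries, 2.32, 1.29 and 1.75 CPM in heat libraries, and 15.1, 13.2 and 12.4 CPM in mock libraries. The heat libraries were far below the mock libraries, while wounded replicate 3 was close to the highest mock library. The model fitted a log2 fold change of -2.91 ± 0.283 for heat and of 0.97 ± 0.231 for wounding (SE, edgeR).

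**Figure D4:**
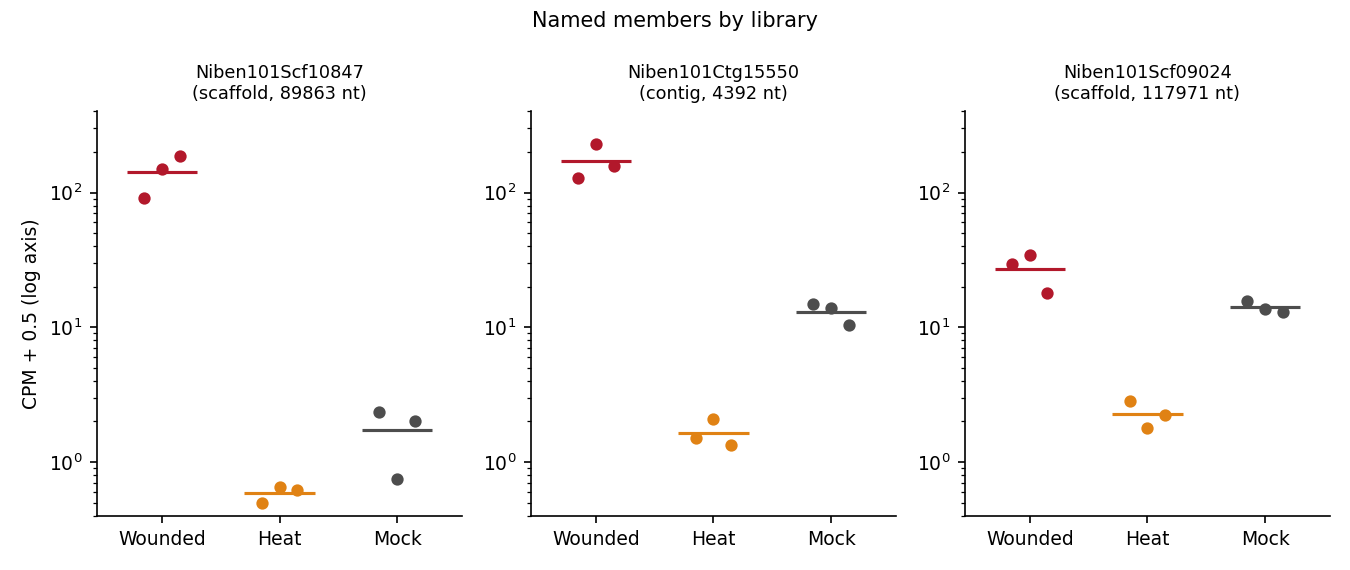
CPM + 0.5 on a log axis in each library for the 3 named sequences; points are single libraries and lines group means. Niben101Ctg15550 is separated on both sides of mock, Niben101Scf10847 mainly by its wounded libraries (90.1 to 185.5 CPM) and Niben101Scf09024 mainly by its heat libraries (1.29 to 2.32 CPM).

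Short sequences are of use here because fewer genes fit on them. Of the members, 8 were contigs and 85 scaffolds, with lengths from 750 to 1294794 nt and a median of 198707 nt, against a median of 273780 nt for the 7167 sequences. Under 20000 nt there were 10 members, or 2.05% of the 488 sequences of that length with a wounded mean of at least 5 CPM. At 20000 nt or more there were 83, or 1.24% of 6679. The class from 2000 to under 20000 nt held 9 members among 258 sequences (3.49%), and the class under 2000 nt held 1 among 230 (0.435%). These shares were not tested, since sequences of the same libraries are not replicates. The median heat to mock ratio was 0.232 over the 10 short members and 0.478 over the 83 longer ones. The median wounding ratios were 2.21 and 1.87. These medians are over members alone, and the ratios of all sequences of each length were not compared. The short members also had lower levels, with medians of 11.6 CPM in wounded, 1.04 CPM in heat and 6.10 CPM in mock libraries, against 49.5, 8.86 and 19.8 CPM for the longer members in the same groups.

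The shortest member was a contig of 750 nt. It had 244, 281 and 159 CPM in wounded libraries, 16.4, 24.3 and 21.6 CPM in heat libraries, and 89.4, 107 and 88.1 CPM in mock libraries. Its ratios to mock were 2.40 after wounding and 0.223 after heat. Its lowest wounded library was 1.485 times the highest mock library, near the median factor of the members, and its lowest mock library was 3.63 times the highest heat library. A contig of 6205 nt had 64.8, 73.6 and 57.5 CPM in wounded libraries, 4.14, 2.12 and 4.52 CPM in heat libraries, and 26.5, 21.6 and 24.6 CPM in mock libraries. All 9 of its libraries fell into 3 well separated groups. A contig of 2317 nt was less even, with 89.9, 112 and 106 CPM in wounded libraries, 5.375, 13.3 and 6.87 CPM in heat libraries, and 68.0, 33.0 and 42.8 CPM in mock libraries, where replicate 1 was about as close to the wounded libraries as to the other mock libraries. At the other end, the longest member, a scaffold of 1294794 nt, had 28.6, 44.0 and 38.1 CPM in wounded libraries, 14.1, 15.2 and 13.1 CPM in heat libraries, and 22.0, 23.9 and 23.0 CPM in mock libraries, with ratios of 1.59 and 0.624 near the limits of the rule.

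In the quasi-likelihood test of edgeR, adjusted by Benjamini-Hochberg over all 9645 sequences, 79 of the 93 members were called higher after wounding, where 9.86% of all sequences were. After heat 92 members were called lower, where 22.8% of all sequences were, and between the treatments all 93 were called higher after wounding than after heat, where 25% of all sequences were. The rule used these contrasts, so nothing is read from the counts. Both comparisons with mock called 79 members, heat alone called 13, and 1 was called in neither. The 13 called after heat alone had a median wounded mean of 10.1 CPM, against 59.2 CPM for the 79. The member called in neither, a scaffold of 46281 nt, had 13.3, 13.6 and 8.60 CPM in wounded libraries, 5.01, 1.90 and 4.76 CPM in heat libraries, and 6.13, 6.997 and 6.54 CPM in mock libraries. Its heat libraries were uneven, with replicates 1 and 3 closer to mock than replicate 2. Its wounded libraries were uneven too, with replicate 3 the closest to mock. Without wounded replicate 2, 60 members were called higher after wounding and 92 lower after heat; without mock replicate 3 the counts were 62 and 90.

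The only values that the choice of sequences did not use come from libraries left out of it. The rule itself was set with earlier results of these data known, so these libraries are not fully independent of it. The rule was applied to the 6 libraries of 2 replicate numbers, and the 3 libraries of the remaining number were then read. Without the libraries numbered 1, 101 sequences were chosen, and 98 of them (97.0%) had the wounded library above and the heat library below the mock library among the 3 left out, where 22% of all tested sequences did. Without those numbered 2, the order held in 86 of 101 (85.1%), where it held in 20.9% of all tested sequences. Without those numbered 3, it held in 107 of 120 (89.2%), against 19.5% of all tested sequences. Among sequences with a wounded mean of at least 5 CPM, the order held in 23.2%, 22.1% and 20.6% for the numbers 1, 2 and 3. The 3 runs share libraries and are not independent of each other. Within a run, all sequences are read in the same 3 libraries, so they are not replicates. Of the sequences chosen, 82, 71 and 87 were among the 93 members.

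The size of the change in the left-out libraries varied with the number left out. The median wounded to mock ratio was 1.87, 2.38 and 1.72 in the left-out libraries numbered 1, 2 and 3, against 1.92, 2.04 and 1.95 in the libraries that chose the sequences. The median heat to mock ratio was 0.408, 0.527 and 0.486 in the left-out libraries, against 0.473, 0.494 and 0.492 in those that chose. In the left-out libraries taken alone, 62 of 101, 59 of 101 and 59 of 120 sequences still passed both ratios of the rule. With number 3 left out, 2 sequences had a heat to mock ratio above 2 in the left-out libraries.

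**Figure D5:**
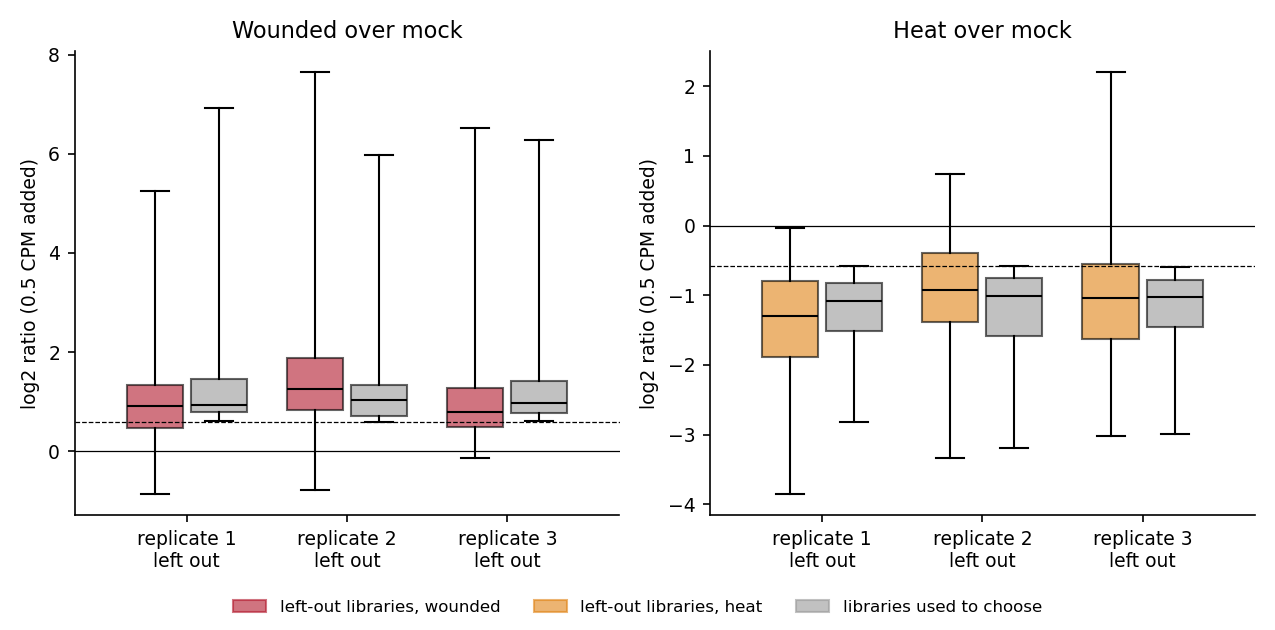
Log2 ratio of wounded over mock (left) and of heat over mock (right), 0.5 CPM added, for sequences chosen without the libraries of 1 replicate number; coloured boxes are the left-out libraries, grey boxes the libraries that chose, boxes span quartiles, the line in each is the median and whiskers span all values. Coloured medians lie on the same side of 0 as the grey ones in each of the 6 pairs, and coloured whiskers cross 0 in 5 of them.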

How the data were processed

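The authors deposited 1 table of 56094 rows, each a whole scaffold or contig whose name begins with Niben101, with a raw count and a value headed CPM per library (per the file headers). The deposited CPM is a scaled signal: within a library it is the count divided by 1 constant, with sums from 909726 to 1068742 over the libraries. Aligner, counting tool, strand handling, treatment of multiply matching reads and genome build: not given in the sources used here. Values of near-identical sequences are therefore uncertain. RPKM and TPM columns were not used, as they divide by whole sequence lengths. Per the labels' protocols, Trizol was used for extraction and a company prepared the libraries.

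The members were found from the CPM columns. The test used edgeR 4.0.16 in R 4.3.3 on the deposited counts: filterByExpr on the groups left 9645 sequences, which include all 93 members, scaled by TMM and fitted with 1 quasi-likelihood model of the 3 groups. Adjustment was by Benjamini-Hochberg over these sequences, with calls at an adjusted p of 0.05. A standard error is the fitted log2 change over the root of its F value. DESeq2 1.42.0 was an alternative. Members named had an adjusted p under 0.05 in both comparisons with mock and averaged at least 10 CPM in wounded libraries or, for the fall after heat, in mock libraries; other members are described by length or level, and those with a length stated were picked with their values in view. Counting intervals are exact 95% binomial intervals on summed counts and, like the level of 3 counts, cover counting error only. The rule, the length classes and the tests were chosen with earlier results of these data known.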

Additional observations from a re-analysis of the deposited data

How the results depend on the processing

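Under other scalings, offsets and level limits and with single libraries left out, 81 to 109 sequences met the rule for members (90 to 109 with a library left out). Of the 93 members, 78 still met it without mock replicate 2, 85 without wounded replicate 2, 81 with upper-quartile factors and 89 with TMM factors. Ratios of 2 and 0.5 left 24 members, and 11 sequences under the mirrored rule, by construction; the mirrored count was otherwise 45 to 77 (54 to 77 with a library left out). The median member log2 change after heat was -1.26, and it was -1.44 with upper-quartile factors and -1.37 with library totals alone, which moved the median of all tested sequences to -0.17 and -0.12. The summed level of the members after heat was 0.415 times mock with upper-quartile factors, 0.430 times with library totals and 0.452 times without the 5 most abundant members, against 0.468; these settings for sums, and the members' ratios and 2-fold classes without single libraries, were chosen after seeing the data. With a library left out it was 0.461 to 0.479, and 2.19 to 2.59 times mock after wounding. Leaving out 1 library gave 60 to 85 members called higher after wounding, 83 to 92 called lower after heat, and medians of 0.90 to 1.04 and -1.27 to -1.19. The counts of calls were lowest without wounded replicate 2 (60) and mock replicate 3 (62) for wounding and without heat replicate 1 (83) for heat. Libraries with the same number did not deviate together (r from -0.144 to 0.109 over 9 pairs), so the numbers were not taken as pairing; 2 of 9 libraries had their highest r with a like-numbered library. With the replicate block, 72 members were called higher after wounding, 89 lower after heat and 93 between treatments, with medians of 0.97 and -1.24. The fitted wounding change of Niben101Scf09024 missed an adjusted p of 0.05 without wounded replicate 1, wounded replicate 2 and mock replicate 3. Directions and calls of the members in these refits rest on the values that chose them and are no check of the choice. Some members have few reads: in 12 of the 93 the wounded mean was under 10 CPM, and in 8 the heat mean was under 1 CPM.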
